A study of Zea mays with 9 samples.

Results

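The genes described here are the maize (Zea mays) genes of the mitogen-activated protein (MAP) kinase cascade, measured in leaves infiltrated with the peptide Zip1, with salicylic acid (SA) or with a mock solution. A gene was a member where the protein entry that the deposited count table pairs with it contains the words mitogen-activated protein kinase. Such an entry is that of a similar protein, mostly of rice or Arabidopsis, and gives no maize gene symbol. This rule uses no measured value, and it found 88 of 39755 genes. Of these, 34 had an entry for a MAP kinase (MAPK), 25 for a MAP kinase kinase (MAPKK) and 29 for a MAP kinase kinase kinase (MAPKKK).

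Zip1 is a short immune signalling peptide that maize cells release from a larger precursor, and SA is a plant defence hormone. All plants were seedlings of the cultivar Golden Bantam, 8 days old, with no transgene or mutation named in the labels. Leaf 2 was cut and infiltrated under a vacuum of 60 mbar with 5 µM Zip1 (the Zip1 group), 2 mM SA (the SA group) or water with 0.1% dimethyl sulfoxide (the mock group). Leaf RNA was taken after 6 h, with 3 libraries in each group. Whether the Zip1 and SA solutions also held dimethyl sulfoxide, and how many leaves entered a library, is not stated.

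The cascade passes a signal by phosphorylation. A MAPKKK phosphorylates a MAPKK, the MAPKK phosphorylates a MAPK, and the MAPK phosphorylates enzymes and transcription factors. In plant leaves, receptors that recognise microbial molecules or released plant peptides switch such cascades on, and ethylene synthesis, defence gene expression and stomatal development are among the outputs. The kinases are switched by phosphorylation of proteins that are already present, so a transcript level does not measure the activity of the cascade.

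The libraries held 28840453 to 38794412 counts, of which the members took 0.142% to 0.226%. In libraries of the same group, counts differed beyond sampling noise in every pair, with a chi-square per degree of freedom of 49.9 to 110, so none of the libraries repeats another. Whether the replicates came from separate plants is not stated, and p-values measure only the spread between these libraries. Entries for leaf proteins (the small subunit of ribulose bisphosphate carboxylase, chlorophyll binding proteins and carbon fixation enzymes, 51 genes) took 9.79% to 13.6% of the counts in Zip1 libraries, 10.1% to 12.1% in SA libraries and 11.3% to 15.2% in mock libraries. Entries for seed, root and pollen proteins (68 genes) took 0.0196% to 0.0314% with Zip1, 0.0301% to 0.0380% with SA and 0.0176% to 0.0434% in mock libraries. The median log2 fold change of the 41 tested leaf genes was −0.30 with SA over mock, with 5 of them positive, and −0.29 with Zip1 over mock, with 8 positive. Of the seed, root and pollen genes 9 were tested, namely 5 nicotianamine synthase, 3 casparian strip membrane protein and 1 pollen allergen gene. None of the embryo oleosin or seed zein genes held enough counts for a test. The part of these shares in the results below was not tested. In leaf tissue, fewer cells of a type and less RNA per cell cannot be told apart.

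The 88 members carried 32 different entries, and 76 of them had a protein kinase domain in the table's Pfam column. Transcripts of 10 members, of which 7 were MAPKK genes, had no count in any library. A test was made for the 56 members with enough counts, 24 of the MAPKKK genes, 11 of the MAPKK genes and 21 of the MAPK genes. The 32 members without a test reached at most 90 counts over all 9 libraries, and their median length was 1029 bases against 2384.5 bases for the tested members. Of the tested members, 3 had fewer than 10 counts in every mock library and so entered the test through the Zip1 or SA libraries. These were Zm00001eb155710, Zm00001eb294610 and Zm00001eb360950, all with the entry MAPKKK17.

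Some entries were shared by many genes. The entry MKK9, an Arabidopsis MAPKK that acts in ethylene responses, was given to 13 genes: 3 were tested, and 7 were without counts throughout. The entry MAPKKK17 was given to 8 genes, of which 7 were tested. These 8 genes lay in 3 groups of neighbours (build not stated): 4 genes within 65.1 kb of chromosome 3, 2 genes within 15.7 kb of chromosome 6 and 2 genes within 44.8 kb of chromosome 8. Reads from close copies can be divided between genes in counting, so counts of genes that share an entry within 100 kb, 21 of the members, are uncertain. A further limit concerned 12 members that overlapped another gene, among them 2 pairs of members on opposite strands. The MKK9 genes Zm00001eb399660 and Zm00001eb399670 occupied the same 1372 bases of chromosome 9 (151729252 to 151730623) on the plus and the minus strand. The plus-strand gene held 4.24 to 23.9 times as many counts as the minus-strand gene. The MKK5 genes Zm00001eb192730 and Zm00001eb192740 shared 2328 bases of chromosome 4, with 3.17 to 8.82 times as many counts for the plus-strand gene. Whether counting used the strand is not given in the sources used here, and the counts of both pairs are uncertain.

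Levels were first compared between genes as normalised CPM per kilobase of gene length. In mock leaves the median level over the tested members was 2.75 for MAPKKK genes, 5.36 for MAPKK genes and 12.9 for MAPK genes. The first tier was led by Zm00001eb168730 at 23.3 ± 3.13 and Zm00001eb422820 at 20.6 ± 1.20 in mock leaves (SD, n = 3), both with the entry MAPKKK3, and by the MAPKKK5 gene Zm00001eb058410 at 17.3 ± 2.45. In Arabidopsis both of these kinases pass signals from pattern receptors to the MAPKK tier. The mock libraries of the first and the second gene overlapped, so their order is not settled. Zm00001eb168730 stood at 24.8 ± 2.16 in Zip1 leaves and 26.5 ± 5.13 in SA leaves, and Zm00001eb058410 at 18.7 ± 1.42 in Zip1 leaves and 17.6 ± 1.20 in SA leaves. For both genes the libraries of all 3 groups overlapped. Zm00001eb422820 stood at 19.4 ± 2.78 in Zip1 leaves and 24.1 ± 3.16 in SA leaves. Its SA libraries were all above its mock libraries, with a log2 fold change of 0.22 ± 0.16 and an adjusted p of 0.508 in edgeR's quasi-likelihood test.

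The MAPKK tier was uneven. The MKK2 gene Zm00001eb377050, whose Arabidopsis namesake works below MEKK1 in immunity and cold responses, stood at 68.1 ± 9.50 in Zip1 leaves, 114.6 ± 26.5 in SA leaves and 70.3 ± 11.2 in mock leaves. It took 36.3% to 47.4% of the summed level of the tested MAPKK genes in Zip1 libraries, 47.9% to 56.5% in SA libraries and 36.9% to 47.2% in mock libraries. The MKK1 gene Zm00001eb154530 followed at 34.5 ± 4.06 in Zip1 leaves, 34.8 ± 2.95 in SA leaves and 33.9 ± 6.09 in mock leaves. The MKK9 gene Zm00001eb009250, at 19.0 ± 5.50, 24.3 ± 5.10 and 23.8 ± 1.18 in Zip1, SA and mock leaves, and the MKK3 gene Zm00001eb133330, at 19.9 ± 0.48, 19.6 ± 2.44 and 20.3 ± 3.91, came next. The MKK9 gene had the higher mean in SA and mock leaves and the MKK3 gene in Zip1 leaves. Of the 25 genes of the tier, 14 held too few counts for a test.

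The MAPK tier was spread more evenly. Its highest gene, Zm00001eb376640 with the entry of rice MPK1, stood at 74.0 ± 7.65 in Zip1 leaves, 75.9 ± 5.08 in SA leaves and 68.2 ± 9.01 in mock leaves, between 15.3% and 18.2% of the tier's sum in all 9 libraries. The second gene with this entry, Zm00001eb270940, stood at 34.6 ± 4.10, 31.1 ± 0.98 and 33.7 ± 3.52 in Zip1, SA and mock leaves. Rice and Arabidopsis number their MAP kinases independently, and rice MPK1 is the counterpart of Arabidopsis MPK6. The MPK8 gene Zm00001eb157530 was second in mock leaves at 45.5 ± 0.57, against 58.0 ± 6.72 in Zip1 leaves and 39.1 ± 11.0 in SA leaves. The MPK3 gene Zm00001eb232260 (entry of rice) came next at 35.4 ± 4.30 in Zip1 leaves, 38.2 ± 1.59 in SA leaves and 40.2 ± 4.79 in mock leaves. For this gene and the MPK1 pair the libraries of all 3 groups overlapped.

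**Figure D1:**
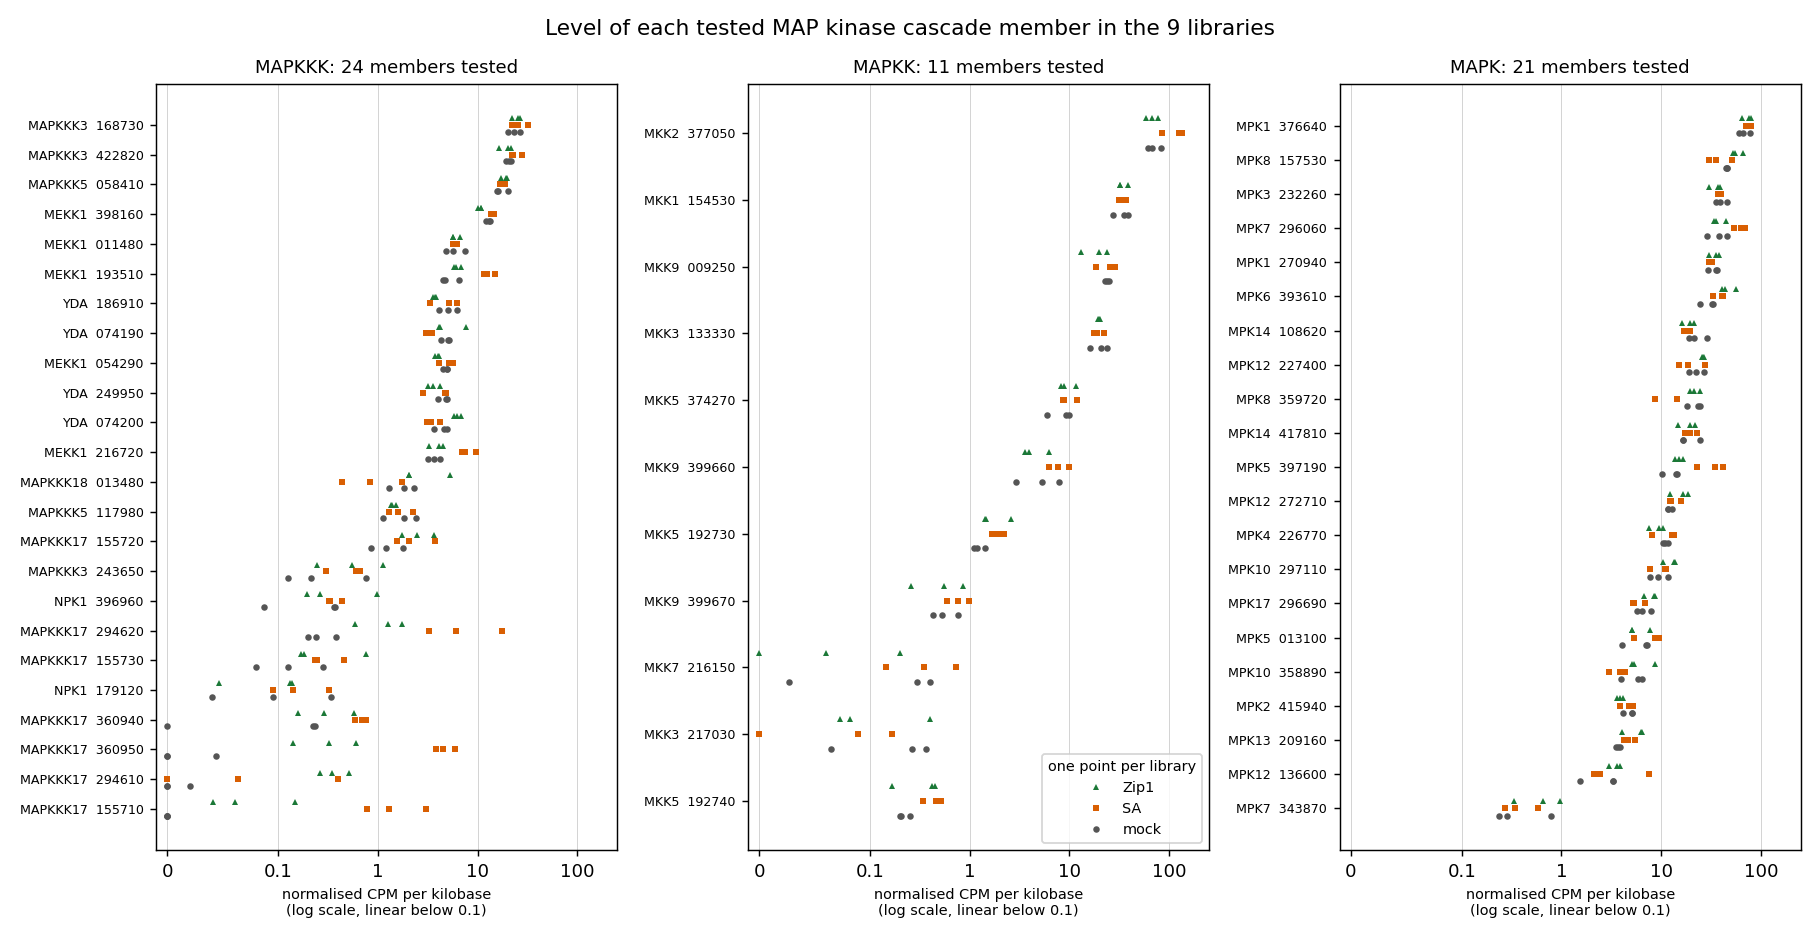
Level of the 56 tested members in each library, in normalised CPM per kilobase on a log axis that is linear below 0.1. Triangles are Zip1, squares SA and circles mock libraries, 3 each, and rows are ordered by the mock mean. The MKK2 gene and the MPK1 gene Zm00001eb376640 lead their tiers, and the MAPKKK17 genes at the foot of the first panel show the widest gaps between groups. Of these, Zm00001eb155710, Zm00001eb294610 and Zm00001eb360950 entered the test through Zip1 or SA libraries, so their gaps are not independent of the filter.

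The comparison of SA with mock leaves asked which transcripts the hormone changed. At an adjusted p under 0.05 in edgeR's quasi-likelihood test with Benjamini-Hochberg adjustment over all 23077 tested genes, 6 members rose and 1 fell. The rises were 5 MAPKKK genes, with the entries MAPKKK17 (3 genes) and MEKK1 (2 genes), and 1 MAPK gene with the entry of rice MPK5. The fall was a MAPK gene with the entry MPK8, and no MAPKK gene passed. The 7 called members were 12.5% of the 56 tested, and 6.22% of all tested genes were called (5.11% higher, 1.11% lower). By tier this was 5 of 24 MAPKKK genes, 0 of 11 MAPKK genes and 2 of 21 MAPK genes. At an unadjusted p under 0.05 the tiers had 6, 1 and 3 genes, or 10 of the 56 members. Of all 23077 tested genes, 4371 had such a p. DESeq2 called 9 members, of which 1 was a MAPKK gene, and 10.6% of all tested genes. Since Zm00001eb155710 and Zm00001eb360950 entered the test through treated libraries, their calls follow in part from the filter, and the count without the 3 such members was 5 of 53, or 9.43%. The median log2 fold change was 0.16 over the tested members and −0.04 over all tested genes. The libraries of SA and mock leaves did not overlap for 16 members, 14 higher and 2 lower with SA, or 28.6%, against 23.9% of all genes (13.5% higher, 10.5% lower). Zm00001eb155710 and Zm00001eb360950 were among the 14 higher.

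The largest rises were in the MAPKKK17 genes. In Arabidopsis, MAPKKK17 is induced by the hormone abscisic acid and acts through MKK3. On chromosome 8, Zm00001eb360950 (156982247 to 156983760, minus strand) had 14, 31 and 7 raw counts in Zip1 libraries, 260, 227 and 198 in SA libraries, and 2, 0 and 0 in mock libraries. The 3 groups did not overlap, and the SA libraries stood far above the others. In normalised counts the means were 17.1 ± 11.2 in Zip1 leaves, 226 ± 50.1 in SA leaves and 0.696 ± 1.20 in mock leaves. The ratio of SA to mock counts, scaled for depth, was 322, with a 95% interval from counting error alone of 88.7 to 2660. The fitted log2 fold change was 8.12 ± 0.87 (SE; adjusted p = 0.000344 in edgeR's quasi-likelihood test). Both mock counts came from mock replicate 1, and the fitted value without it, 10.83, is no bound.

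On chromosome 3, Zm00001eb155710 (210847204 to 210853152, plus strand) had 4, 17 and 7 raw counts with Zip1, 303, 175 and 79 with SA, and 0 in each mock library. Every SA library was above every Zip1 library, and every Zip1 library above the mock libraries. Against a floor of 3 counts in each mock library the SA level was at least 56.9-fold higher (adjusted p = 0.00113, edgeR's quasi-likelihood test), and at least 34.9-fold higher without SA replicate 1. This gene is one of 3 tested members for which the table lists no kinase domain, so its place in the family rests on its entry. On chromosome 6, Zm00001eb294620 (173661545 to 173663114, minus strand) had 77, 67 and 31 raw counts with Zip1, 805, 371 and 151 with SA, and 18, 9 and 12 in mock libraries. Again the 3 groups did not overlap, although the SA libraries spread over a wide range. Its normalised means were 59.3 ± 28.3 in Zip1 leaves, 445 ± 376 in SA leaves and 13.5 ± 4.73 in mock leaves, and SA exceeded mock by 5.03 ± 0.70 on the log2 scale (SE; edgeR's quasi-likelihood adjusted p = 0.00173), or by 4.09 without SA replicate 1.

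Each of the 3 neighbour groups thus held 1 called MAPKKK17 gene, and none of its tested neighbours was called. All 7 tested MAPKKK17 genes had a positive log2 fold change with SA over mock, the smallest 0.92. Of the called genes, Zm00001eb155710 and Zm00001eb360950 had entered the test through treated libraries, so this contrast is not independent of the filter. On chromosome 3, Zm00001eb155720 was the MAPKKK17 gene with the most counts in mock leaves, with 106, 90 and 187 raw counts with Zip1, 92, 92 and 167 with SA, and 39, 54 and 88 in mock libraries. Its log2 fold change with SA was 0.92 ± 0.45 (SE; adjusted p = 0.301, edgeR's quasi-likelihood test), with overlapping libraries. Zm00001eb155730 had a log2 fold change of 0.92 ± 0.87, and Zm00001eb155690, not tested, had a single count in 1 mock library and none elsewhere. On chromosome 8, Zm00001eb360940 had 25, 15 and 8 raw counts with Zip1, 34, 35 and 31 with SA, and 11, 0 and 11 in mock libraries. Its SA libraries were above its mock libraries, by 2.12 ± 0.98 in log2 units (adjusted p = 0.277, edgeR's quasi-likelihood test). On chromosome 6, Zm00001eb294610 had Zip1 and SA libraries that overlapped, with 16, 28 and 14 raw counts with Zip1, 0, 4 and 19 with SA, and 1, 0 and 0 in mock libraries. Its log2 fold change with SA over mock was 4.08, the largest of the MAPKKK genes without a call, and its SA and mock libraries overlapped. These neighbours, which the rule for naming genes did not select, were described after their values were seen. The summed level of the MAPKKK17 genes was 5.35 ± 0.28 CPM per kilobase in Zip1 leaves, 19.0 ± 9.35 in SA leaves and 1.90 ± 0.56 in mock leaves (SD, n = 3).

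**Figure D2:**
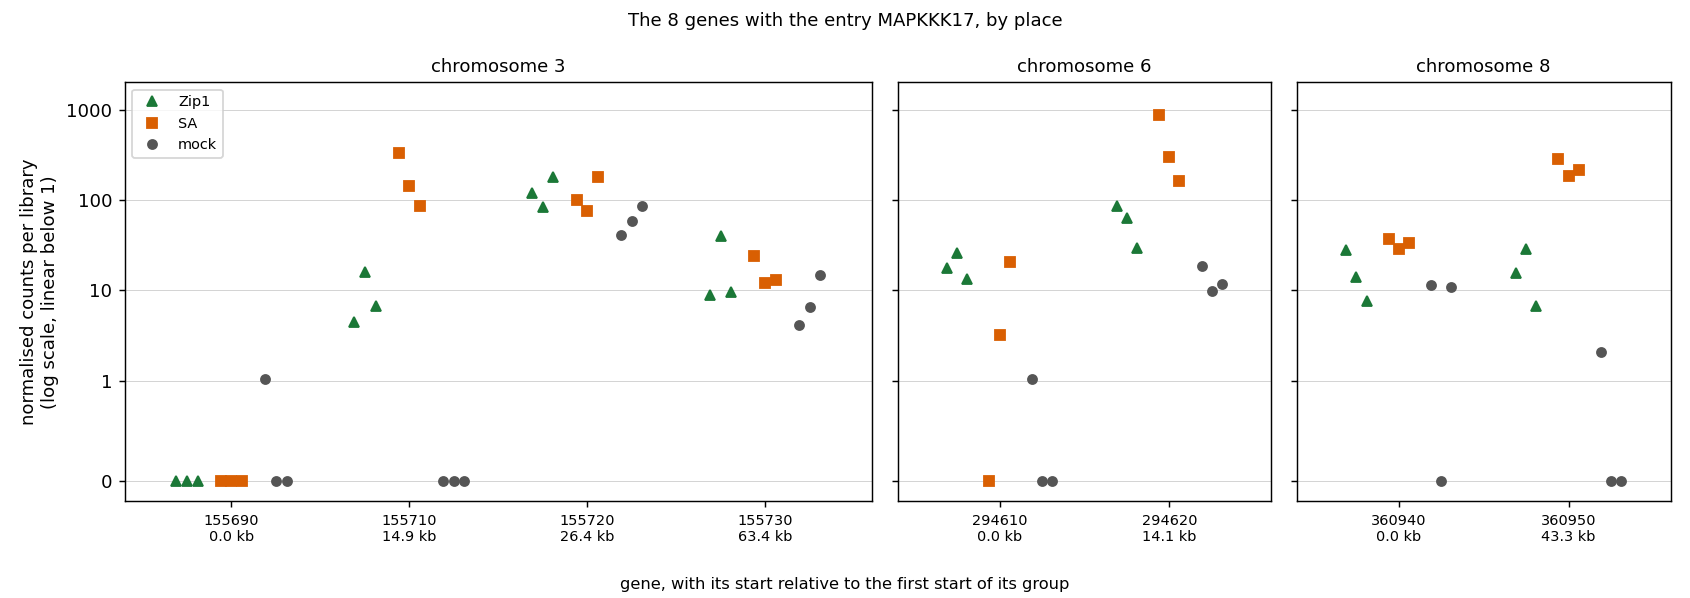
Normalised counts of the 8 MAPKKK17 genes in each library (log axis, linear below 1), placed by gene start within the 3 neighbour groups on chromosomes 3, 6 and 8. Triangles are Zip1, squares SA and circles mock libraries. In Zm00001eb155710, Zm00001eb294620 and Zm00001eb360950 the SA libraries lie above the Zip1 libraries and these above the mock libraries, and in the neighbouring genes the Zip1 and SA libraries overlap or lie closer together. Zm00001eb155710, Zm00001eb294610 and Zm00001eb360950 entered the test through Zip1 or SA libraries, so their gaps to the mock libraries are not independent of the filter.

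The entry MEKK1 stands in Arabidopsis for the kinase above MKK1, MKK2 and MPK4, a cascade that is switched on by pattern receptors and restrains cell death. All 5 maize genes with this entry were tested. Zm00001eb193510 (chromosome 4, 183062091 to 183073802, minus strand) had 461, 473 and 538 normalised counts in Zip1 libraries, 977, 901 and 1185 in SA libraries, and 355, 370 and 515 in mock libraries. The SA libraries were all above the rest, and the Zip1 libraries overlapped the mock libraries. SA raised it 2.47-fold over mock, or 1.30 ± 0.19 in log2 units (SE; edgeR's quasi-likelihood adjusted p = 0.00232). It overlaps Zm00001eb193500 on the opposite strand, which had 61 to 150 raw counts in the 9 libraries, so a part of its own counts is uncertain.

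Zm00001eb216720 (chromosome 5, 12641398 to 12647295, plus strand) showed the same order, with 279, 381 and 353 normalised counts in Zip1 libraries, 596, 632 and 825 in SA libraries, and 313, 272 and 356 in mock libraries. Its SA libraries did not overlap those of the other groups. The increase over mock was 2.18-fold, or 1.12 ± 0.21 on the log2 scale (SE; adjusted p = 0.00777, edgeR's quasi-likelihood test). The other 3 MEKK1 genes had log2 fold changes between −0.01 and 0.14 with SA and did not pass. The most abundant MEKK1 gene per length, Zm00001eb398160, was among these 3, at 10.6 ± 0.40 CPM per kilobase in Zip1 leaves, 14.2 ± 0.45 in SA leaves and 12.9 ± 0.67 in mock leaves. The sum over the 5 genes was 30.7 ± 1.80 in Zip1 leaves, 46.1 ± 3.86 in SA leaves and 32.6 ± 1.69 in mock leaves. In the rest of the MAPKKK tier, none of the genes with the entries MAPKKK3, MAPKKK5, MAPKKK18, NPK1 or YODA was called with SA. NPK1 is a tobacco kinase of cell division, and YODA is the Arabidopsis kinase of stomatal and embryo patterning. The 19 MAPKKK genes without a call spanned log2 fold changes of −0.84 to 4.08 with a median SE of 0.31, and 13 of them moved by less than 0.5.

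No MAPKK gene was called with SA in edgeR's quasi-likelihood test. The smallest p was that of the MKK2 gene Zm00001eb377050, with 5427, 4113 and 4657 normalised counts in Zip1 libraries, 8706, 5864 and 9322 in SA libraries, and 5744, 4692 and 4230 in mock libraries. The SA libraries were all above the mock libraries, the nearest by a narrow gap. The log2 fold change was 0.70 ± 0.21 (SE), with an adjusted p of 0.0831 in edgeR's quasi-likelihood test. It was 0.0301 in that test with the replicate number as a block, although the labels state no pairing of libraries. DESeq2 gave an adjusted p of 0.0207. The MKK5 gene Zm00001eb192730 had 108, 196 and 106 normalised counts with Zip1, 165, 127 and 143 with SA, and 106, 82.5 and 89.6 in mock libraries, with no overlap of SA and mock libraries, and an adjusted p of 0.322 in edgeR's quasi-likelihood test. Its antisense overlap, described above, makes this count uncertain. The 11 log2 fold changes of the tier ranged from −1.41 to 0.98, with a median SE of 0.32.

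In the MAPK tier 1 gene rose and 1 fell with SA. The gene that rose, Zm00001eb397190 (chromosome 9, 144513290 to 144516878, minus strand), has the entry of rice MPK5, a kinase induced by infection and abscisic acid and the rice counterpart of Arabidopsis MPK3. It had 986, 1087 and 1194 normalised counts in Zip1 libraries, 2999, 1632 and 2484 in SA libraries, and 1002, 734 and 1046 in mock libraries. The SA libraries were all above the rest, and Zip1 and mock libraries overlapped. SA raised it 2.56-fold over mock, or 1.35 ± 0.23 in log2 units (SE; edgeR's quasi-likelihood adjusted p = 0.00464). The other MPK5 gene, Zm00001eb013100, had overlapping libraries, with 301, 302 and 456 normalised counts with Zip1, 520, 319 and 561 with SA, and 414, 242 and 427 in mock libraries (adjusted p = 0.565 for SA over mock, edgeR's quasi-likelihood test).

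The MAPK gene that fell, Zm00001eb359720 (chromosome 8, 152925340 to 152931695, plus strand; entry of rice MPK8), had 1801, 2233 and 1979 normalised counts in Zip1 libraries, 1308, 1335 and 800 in SA libraries, and 2172, 1658 and 2274 in mock libraries. The SA libraries were all below the rest. The log2 fold change with SA was −0.83 ± 0.21 (SE; adjusted p = 0.0431, edgeR's quasi-likelihood test). This call was the weakest of the 7: leaving out single libraries ended it in 8 of 9 fits (adjusted p up to 0.120, without mock replicate 1; it held only without mock replicate 2) and in a fit of the 6 libraries compared (adjusted p = 0.0932). The other 6 calls were kept in all 9 fits. The second tested gene with this entry, Zm00001eb157530, had 7813, 6604 and 6300 normalised counts with Zip1, 6106, 4274 and 3578 with SA, and 5502, 5370 and 5404 in mock libraries, and a log2 fold change with SA of −0.22 ± 0.20. The MPK7 gene Zm00001eb296060, outside the naming rule and named after its values were seen, had 5422, 4081 and 4301 normalised counts with Zip1, 8383, 6491 and 7583 with SA, and 5530, 3492 and 4571 in mock libraries. The SA libraries were all above the others. Its log2 fold change with SA was 0.72 ± 0.20, with an adjusted p of 0.0641 in edgeR's quasi-likelihood test, of 0.00767 with the replicate block and of 0.0102 in DESeq2. With the block, 9 members were called and 9.62% of all tested genes.

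**Figure D3:**
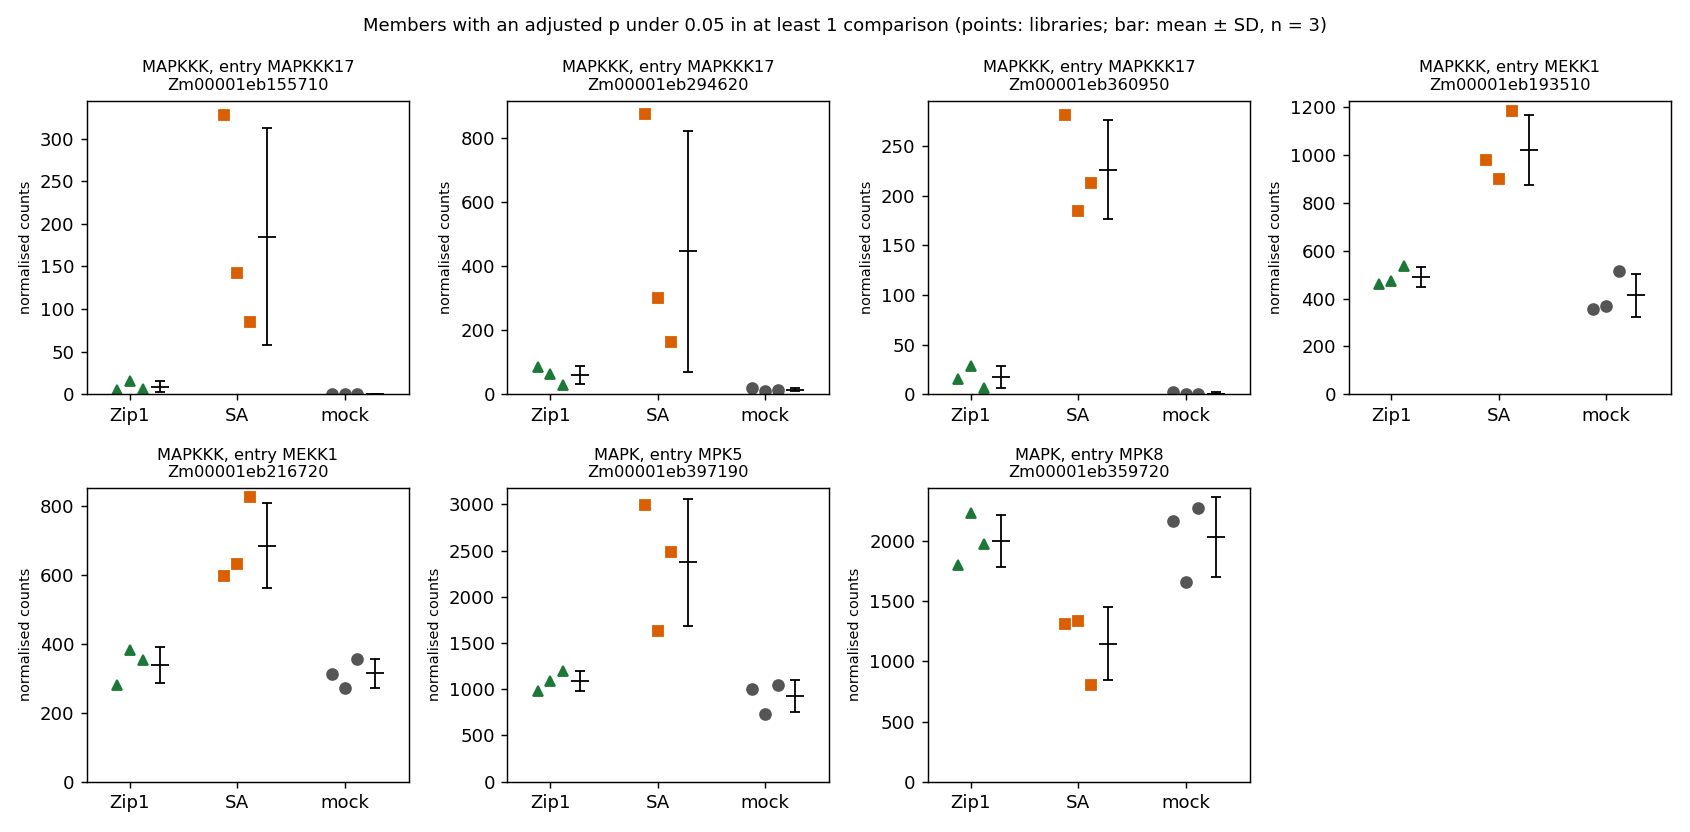
Normalised counts per library of the 7 members with an adjusted p under 0.05 in at least 1 comparison, with Zip1, SA and mock libraries from left to right and bars for the mean ± SD (n = 3). In 6 panels the SA libraries lie above all others, and in the panel of the MPK8 gene Zm00001eb359720 they lie below all others.

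The comparison of Zip1 with mock leaves asked which transcripts the peptide changed. No member passed an adjusted p under 0.05 in edgeR's quasi-likelihood test, where 0.884% of all tested genes did (0.823% higher, 0.0607% lower). Without adjustment, 8 of the 56 members had a p under 0.05, of which 6 were MAPKKK, 0 MAPKK and 2 MAPK genes. Of all 23077 tested genes, 2652 had such a p. DESeq2 called 5 members, with 4.03% of all tested genes. The libraries of Zip1 and mock leaves did not overlap for 12 members, 8 higher and 4 lower with Zip1, or 21.4%, against 17.7% of all genes (10.3% higher, 7.35% lower). Among the 8 higher were Zm00001eb155710, Zm00001eb294610 and Zm00001eb360950, which had entered the test through Zip1 or SA libraries. Their separation from mock libraries is not independent of the filter. Without these members 0 of 53 were called. The median log2 fold change was 0.12 over the tested members and −0.01 over all tested genes. The number of called genes over the whole table was itself unstable, and fell to 0 without mock replicate 1.

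The 2 members nearest to the threshold, Zm00001eb360950 and Zm00001eb155710, were again MAPKKK17 genes, whose counts per library are given above. For Zm00001eb360950, counts were 24.9 times as high in Zip1 as in mock leaves, with a 95% interval from counting error alone of 6.56 to 211, and every Zip1 library was above every mock library. Its adjusted p was 0.0523 in edgeR's quasi-likelihood test, and 0.0459 without Zip1 replicate 3. Zm00001eb155710 was at least 2.76-fold higher than the floor of 3 counts per mock library (adjusted p = 0.0848, edgeR's quasi-likelihood test). Zm00001eb294620 exceeded mock by 2.12 ± 0.66 on the log2 scale (SE; adjusted p = 0.194, edgeR's quasi-likelihood test), and Zm00001eb294610 had 55.6 times the mock level, with a 95% counting interval of 9.59 to 2233 (adjusted p = 0.187, edgeR's quasi-likelihood test). All 4 genes had Zip1 libraries above the mock libraries, at levels that left few counts per library. Of these genes, Zm00001eb155710, Zm00001eb294610 and Zm00001eb360950 had entered the test through Zip1 or SA libraries. Their order and ratios are thus not independent of the filter. The MEKK1 genes that rose with SA had log2 fold changes of 0.25 ± 0.19 and 0.11 ± 0.20 with Zip1 over mock. Over all 5 MEKK1 genes the range was −0.29 to 0.25, with 3 positive and 1 at an unadjusted p under 0.05 (edgeR's quasi-likelihood test). For Zm00001eb398160 every Zip1 library was below every mock library, at 865 ± 32.8 against 1055 ± 55.3 normalised counts (SD). So it was for Zm00001eb054290, named after its values were seen, at 518 ± 25.8 against 624 ± 32.5.

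In the MAPK tier the smallest p with Zip1 was that of Zm00001eb393610 (chromosome 9, 130844368 to 130848936, plus strand; entry of rice MPK6). It had 2184, 2333 and 2983 normalised counts in Zip1 libraries, 1750, 2154 and 2231 in SA libraries, and 1726, 1298 and 1764 in mock libraries. The Zip1 libraries were above the mock libraries, and the SA libraries overlapped both groups. The log2 fold change over mock was 0.65 ± 0.18 (SE), with an adjusted p of 0.147 in edgeR's quasi-likelihood test and of 0.0448 in DESeq2. The MPK13 gene Zm00001eb209160 had 352, 563 and 541 normalised counts with Zip1, 472, 405 and 364 with SA, and 336, 307 and 322 in mock libraries. Both treatments were above mock in every library. Zip1 exceeded mock by 0.59 ± 0.21 on the log2 scale (SE; edgeR's quasi-likelihood adjusted p = 0.273). Of the 21 MAPK genes, 18 moved by less than 0.5 on the log2 scale, with a median SE of 0.21.

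Among MAPKK genes the 2 smallest p-values with Zip1 were those of Zm00001eb192730, at 137 ± 51.5 normalised counts in Zip1 leaves and 92.8 ± 12.3 in mock leaves, and of the MKK9 gene Zm00001eb009250. The MKK9 gene had 932, 1106 and 603 normalised counts in Zip1 libraries and 1057, 1097 and 1166 in mock libraries. In both genes the groups overlapped, and the adjusted p was 0.580 for Zm00001eb192730 and 0.660 for Zm00001eb009250 (edgeR's quasi-likelihood test).

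The direct comparison of Zip1 with SA leaves tests the difference between the treatments themselves. In edgeR's quasi-likelihood test, 6 members were lower with Zip1 than with SA and 0 were higher, or 10.7% of the 56 tested, where 4.11% of all tested genes were called (2.56% lower, 1.56% higher). They were the same 6 genes that rose with SA over mock, and both comparisons share the SA libraries. By tier they were 5 of 24 MAPKKK genes, 0 of 11 MAPKK genes and 1 of 21 MAPK genes. Without adjustment, 17 of the 56 members had a p under 0.05, of which 9 were MAPKKK, 2 MAPKK and 6 MAPK genes. Of all 23077 tested genes, 4019 had such a p. The libraries did not overlap for 19 members, 13 lower and 6 higher with Zip1, or 33.9%, against 23.5% of all genes. The median log2 difference was −0.08 over the tested members and 0.01 over all tested genes, and without the 3 members with under 10 counts in mock libraries 4 of 53 were called.

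The log2 difference of Zip1 minus SA was −3.72 ± 0.62 for Zm00001eb360950 (SE; adjusted p = 0.00803), −4.33 ± 0.71 for Zm00001eb155710 (adjusted p = 0.0124) and −2.91 ± 0.61 for Zm00001eb294620 (adjusted p = 0.0257), all in edgeR's quasi-likelihood test. In these MAPKKK17 genes the Zip1 libraries lay between mock and SA libraries, although none of them was called with Zip1 over mock. Zm00001eb155710 and Zm00001eb360950 had entered the test through treated libraries, so their place above the mock libraries is not independent of the filter. Without SA replicate 1 the difference was −3.63 for Zm00001eb155710 and −1.97 for Zm00001eb294620, and without Zip1 replicate 2 it was −5.02 for Zm00001eb155710 and −4.35 for Zm00001eb360950. The 2 called MEKK1 genes were lower with Zip1 too, with −1.06 ± 0.19 for Zm00001eb193510 (adjusted p = 0.0120) and −1.02 ± 0.20 for Zm00001eb216720 (adjusted p = 0.0202). The MPK5 gene Zm00001eb397190 differed by −1.12 ± 0.22 (adjusted p = 0.0198). In the last 3 genes the Zip1 libraries overlapped the mock libraries, while the SA libraries stood apart. These calls depended on single libraries more than those of SA against mock: without Zip1 replicate 1, and likewise without Zip1 replicate 3, 2 members were called. Of the 9 fits with a library removed, all 9 called Zm00001eb360950, against 8 fits for Zm00001eb193510 and Zm00001eb155710, 6 for Zm00001eb216720, 5 for Zm00001eb294620 and 4 for Zm00001eb397190.

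Several members with separate libraries did not pass. The MPK8 gene Zm00001eb359720, lower with SA than mock, was higher with Zip1 than with SA by 0.80 ± 0.21 on the log2 scale (adjusted p = 0.0628, edgeR's quasi-likelihood test), and its relative Zm00001eb157530 by 0.57 ± 0.20 (adjusted p = 0.161). The MKK2 gene Zm00001eb377050 was lower with Zip1 than with SA in every library, by −0.75 ± 0.21 (adjusted p = 0.0800). The MKK9 gene Zm00001eb399660, with 156, 268 and 172 normalised counts in Zip1 libraries and 432, 273 and 335 in SA libraries, differed by −0.80 ± 0.36 (adjusted p = 0.279). The MAPKKK18 gene Zm00001eb013480, named after its values were seen, was higher with Zip1 than with SA in every library. It had 252, 97.1 and 96.1 normalised counts in Zip1 libraries, 83.4, 39.8 and 20.5 in SA libraries, and 110, 86.8 and 61.0 in mock libraries, a log2 difference of 1.63 ± 0.56 for Zip1 minus SA (adjusted p = 0.149, edgeR's quasi-likelihood test).

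**Figure D4:**
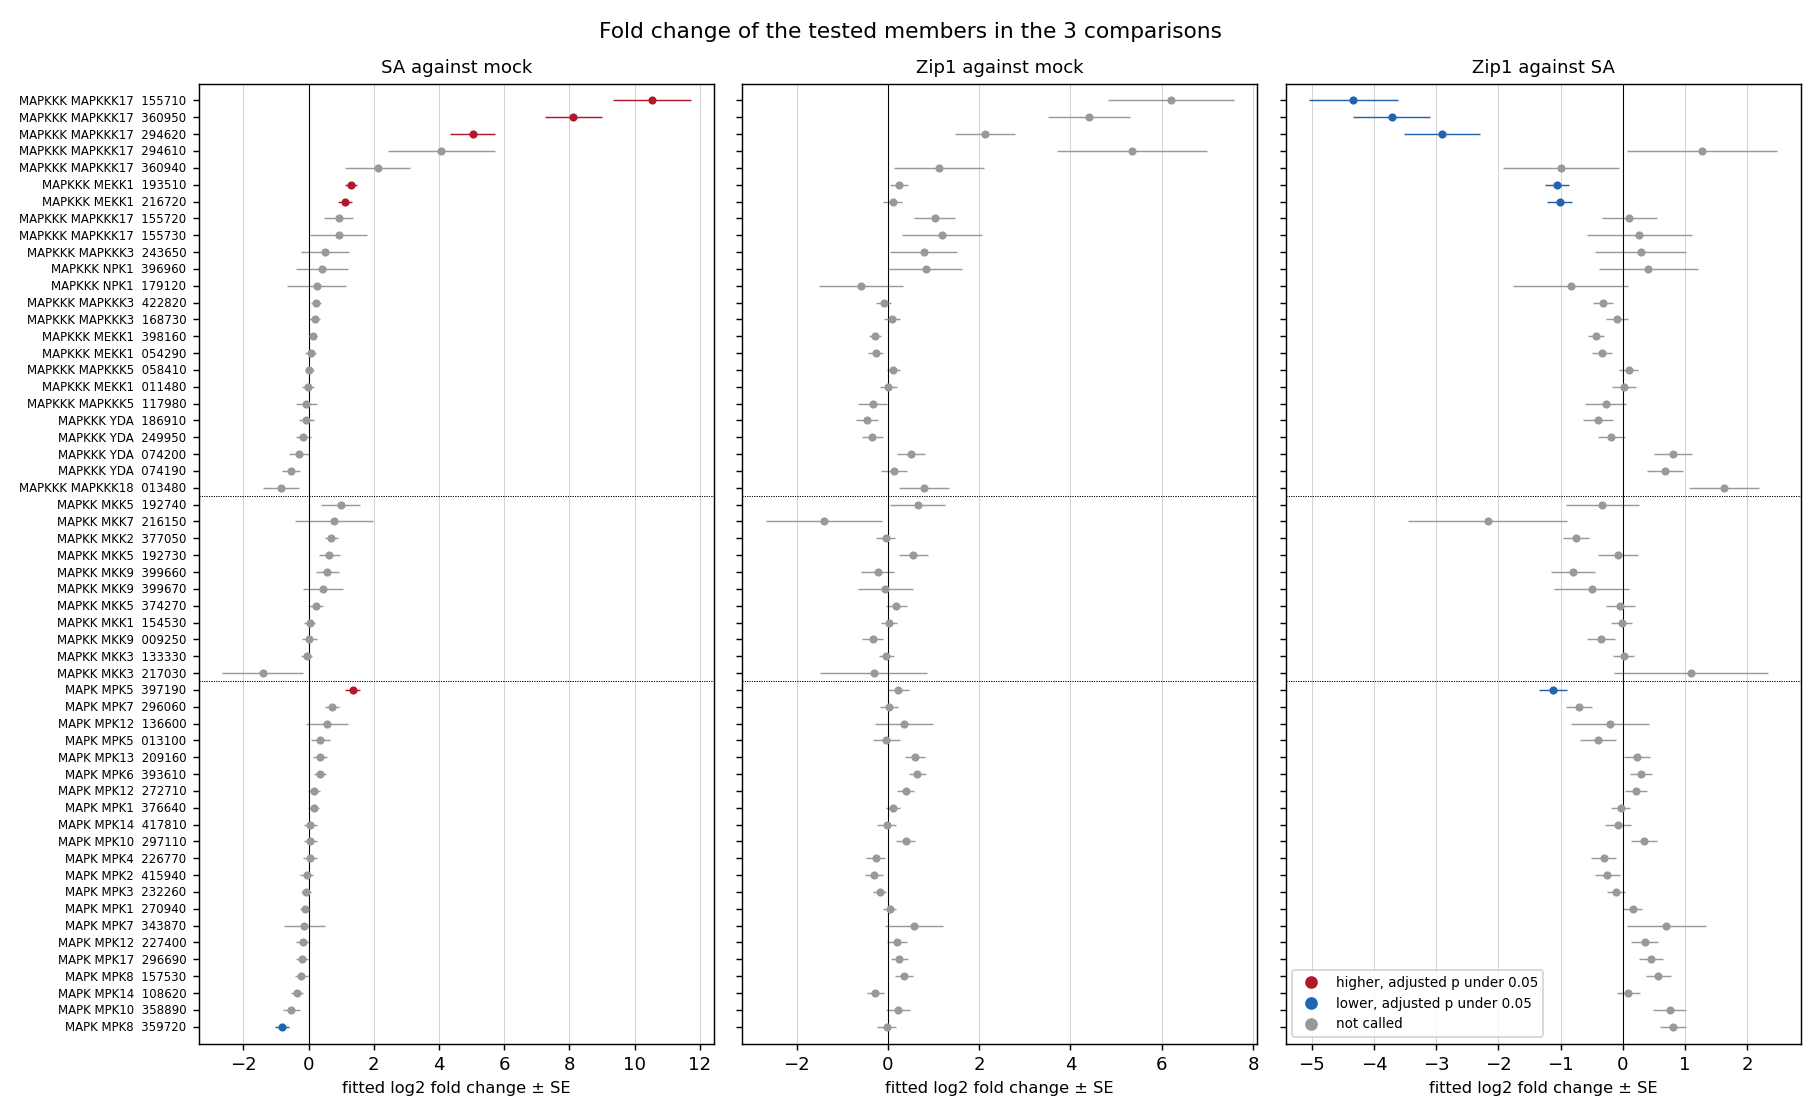
Fitted log2 fold change ± SE of the 56 tested members in the 3 comparisons (left to right SA over mock, Zip1 over mock, Zip1 over SA), grouped as MAPKKK, MAPKK and MAPK genes and ordered by the first comparison. Coloured points have an adjusted p under 0.05: 7 in the first panel, 0 in the second and 6 in the third. The axes differ between panels, and values of genes with almost no mock counts are not bounds.

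Other genes of the pathway were listed by words in their protein entries. MAPK phosphatases, which switch MAP kinases off, had 11 tested genes. Of these, 1 rose with SA over mock, the IBR5 gene Zm00001eb281200, with 646 ± 62.5 normalised counts in SA leaves and 405 ± 20.3 in mock leaves (log2 fold change 0.67 ± 0.16, adjusted p = 0.0337, edgeR's quasi-likelihood test). IBR5 is an Arabidopsis phosphatase of auxin and abscisic acid responses. The median log2 fold change of the phosphatases was −0.10 with SA over mock, −0.01 with Zip1 over mock and 0.02 with Zip1 over SA, near those of all genes. None of the phosphatases was called with Zip1 over mock or over SA, with 1 at an unadjusted p under 0.05 in each comparison. Among 38 tested genes listed as Raf-like and STE20-like kinases outside the rule, of which 1 matched the search word SIK1 but is a receptor kinase, 1 rose with SA over mock. This was the CTR1 gene Zm00001eb374870 (1.08 ± 0.23, adjusted p = 0.0192), whose Arabidopsis namesake represses ethylene responses. The STY13 gene Zm00001eb344490 was higher with Zip1 than with SA, at 622 ± 236 normalised counts in Zip1 leaves and 229 ± 36.0 in SA leaves (1.44 ± 0.34, adjusted p = 0.0400), and no gene of this list was called with Zip1 over mock (5 at an unadjusted p under 0.05). Its medians were −0.01, −0.07 and −0.05 in the same 3 comparisons.

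Upstream receptors and cytoplasmic kinases, the proteins that pass a signal from the cell surface to MAPKKKs, had 47 tested genes. With SA over mock, 5 rose, or 10.6% against 5.11% of all tested genes (BSK1-2 Zm00001eb022440, PBL3 Zm00001eb048420, PBL15 Zm00001eb149520, PBL19 Zm00001eb228010 and PBL10 Zm00001eb414870), with log2 fold changes of 1.10 to 2.53. With Zip1 over mock, 2 rose, against 0.823% of all tested genes. The FLS2 gene Zm00001eb070510, named for the rice receptor of bacterial flagellin, had 1640 ± 403 normalised counts in Zip1 leaves, 711 ± 206 in SA leaves and 478 ± 142 in mock leaves. It rose by 1.78 ± 0.28 on the log2 scale with Zip1 over mock (adjusted p = 0.0216, edgeR's quasi-likelihood test) and was also higher with Zip1 than with SA, by 1.20 ± 0.28 (adjusted p = 0.0357). The PBL15 gene Zm00001eb149520 rose with both, at 884 ± 91.6 normalised counts in Zip1 leaves, 1062 ± 195 in SA leaves and 469 ± 60.8 in mock leaves (adjusted p = 0.0463 for Zip1 over mock). The other 4 genes that rose with SA were lower with Zip1 than with SA, against 2.56% of all tested genes. The list's median log2 fold change was 0.18 with SA over mock, 0.12 with Zip1 over mock and −0.02 with Zip1 over SA.

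Families with known MAPK substrates had 35 tested genes, of which 7 rose with SA over mock, or 20.0% against 5.11% of all tested genes. They were 2 genes for 1-aminocyclopropane-1-carboxylate synthase, which makes the precursor of ethylene (Zm00001eb073290 at 3.87 ± 0.61 and Zm00001eb428490 at 2.79 ± 0.47 on the log2 scale), the MKS1 gene Zm00001eb083470 (3.48 ± 0.51), 3 genes with the entry VQ motif-containing protein 22 and a REVEILLE 7 gene. MKS1 is an Arabidopsis substrate of MPK4. The REVEILLE 7 gene Zm00001eb187450 belongs to a family of clock transcription factors and was matched only through the letters of a search word, and 6 of 22 genes rose without that word, an alternative added after the matches were seen. With Zip1 over mock, 1 gene of the list rose, where 0.823% of all tested genes did. This was the VQ gene Zm00001eb233250, at 65.4 ± 23.7 normalised counts in Zip1 leaves, 160 ± 35.0 in SA leaves and 10.2 ± 5.69 in mock leaves (2.66 ± 0.50 for Zip1 over mock, adjusted p = 0.0373, edgeR's quasi-likelihood test). With Zip1 against SA, 3 genes were lower, where 2.56% of all tested genes were: MKS1 and the VQ genes Zm00001eb274360 and Zm00001eb389870. The list's median was 0.60 with SA over mock, 0.22 with Zip1 over mock and −0.67 with Zip1 over SA, as against −0.04, −0.01 and 0.01 over all tested genes. Without the 13 tested genes matched by that word the list's medians were 0.57, 0.29 and −0.73. The words of these lists were chosen with earlier results of these data known.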

How the data were processed

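Poly-A RNA of 9 leaf libraries was sequenced. The authors deposited raw counts per gene for each library, with gene lengths, coordinates, protein entries and Pfam domains, and the number of count columns with no library was 0. The submitters' processing notes name HISAT2 2.0.5, featureCounts 1.5.0-p3 and DESeq2 1.20.0. The genome build and the strand setting are not given in the sources used here. A deposited table of normalised values was not used because its larger values lack a decimal point.

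From the counts, filterByExpr removed genes with low counts (minimum count 10), TMM scaled the libraries, and edgeR 4.0.16 (R 4.3.3) fitted a quasi-likelihood model with robust estimation to all 9 libraries, with group as the only term. P-values were adjusted by Benjamini-Hochberg over 23077 genes, and called means an adjusted p under 0.05. The fit had a common dispersion of 0.118 (biological variation 34.4%). Approximate standard errors were obtained by dividing the size of a log2 fold change by the root of its F statistic. Normalised counts refer to the mean of the effective library sizes, and SDs are over 3 libraries. Levels per kilobase use the table's gene length. Floors of 3 counts and 95% exact binomial intervals of count ratios cover counting error only. The intervals use counts summed over the 3 libraries of a group and leave out the spread between libraries. Reads carry no molecular identifiers. The fit was tested on simulated counts.

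Named members were those called in any comparison, the 3 highest per length in mock leaves of each tier, and the 2 smallest p-values per tier and comparison. Members with entries numbered MPK1 or MPK5 of rice were named too. The rule also covered entries numbered MPK3, MPK4 or MPK6 of Arabidopsis, which no member had. Exceptions are marked, apart from Zm00001eb133330 and Zm00001eb398160, named for their levels, and Zm00001eb192740 and Zm00001eb399670, named for their overlap. Members, lists and tests were chosen with earlier results of these data known. The replicate block used the replicate numbers, and the labels do not state that libraries with the same number belong together. Deviations of SA and mock libraries from their group means correlated for each number (0.154, 0.164 and 0.130 for numbers 1 to 3). Alternatives were another scaling, other filters, fits of 6 libraries, the replicate block, no robust estimation, DESeq2 1.42.0, a stricter threshold, and each library left out.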

Additional observations from a re-analysis of the deposited data

How the results depend on the processing

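None of the 13 called fold changes of named members changed sign under any alternative, while 16 of the 53 that were not called did under at least 1. For SA against mock the count of 7 called members lay between 6 and 9 under every alternative, and between 6 and 7 with each library left out. For Zip1 against mock, where no member was called, 2 were called without a filter on low counts (Zm00001eb155710 and Zm00001eb360950), 2 with the replicate block (Zm00001eb294620 and Zm00001eb360950), 5 by DESeq2, and 0 to 1 with each library left out (1 without Zip1 replicate 3). For Zip1 against SA, where 6 were called, 1 was called at an adjusted p under 0.01, 10 by DESeq2, 9 with the replicate block and 2 to 7 with each library left out (2 without Zip1 replicate 1 and 2 without Zip1 replicate 3). DESeq2 and the block also called more of all tested genes: 2449 and 2220 for SA against mock, 930 and 574 for Zip1 against mock, and 2037 and 1553 for Zip1 against SA, against 1436, 204 and 949. The cause of these differences was not tested. With DESeq2 size factors the median log2 fold change of all genes moved by −0.0173 to 0.00376. Over the named members' fold changes under the alternatives, 1073 kept their side of the threshold, 30 lost a call and 17 gained one.

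For SA against mock, the replicate block added the MKK2 gene Zm00001eb377050 and the MPK7 gene Zm00001eb296060 and changed no other call among members. In every comparison the labels give the libraries only a shared number. The correlations of deviations for SA and mock are given with the processing. For numbers 1 to 3 they were 0.160, 0.0745 and 0.158 for Zip1 and mock, and 0.0759, 0.157 and 0.0870 for Zip1 and SA. As a hint from the data, each library correlated best with its own number in 18 of 18 cases. Depth limits the members with few counts, among them the 32 without a test.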
